A study of Mus musculus with 18 samples.

Results

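The cytochrome P450 genes described here are 89 of the 30142 genes that the array annotation names by a single symbol. They were chosen by symbol, Cyp followed by a family number and a subfamily letter, and Cyp51 and 5 symbols marked as pseudogenes were left out. Each gene was read from 1 probe set that carries only its own symbol. Cyp11a1 was the only member with more than 1 such probe set, and the one with the higher mean over all arrays was used. A further 9 probe sets carry a P450 symbol together with another symbol and were kept apart, and Cyp2a5 has no probe set of its own. Cyp2d13, which RefSeq lists as a transcribed pseudogene, was kept because its symbol meets the rule.

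The cells came from the lungs, taken with trachea and bronchi, of TCF/Lef:H2B/GFP mice aged 8 to 12 weeks, in which a fluorescent histone driven by TCF/Lef sites reports Wnt/beta-catenin signalling. Live EpCAM+ epithelial cells, depleted of CD31+ and CD45+ cells, were sorted by reporter brightness into Wnthigh, Wntlow and Wntnegative groups, with 6 arrays in each. All 3 groups carry the same transgene, no other allele or treatment is given, and each RNA sample came from cells pooled from 3 to 4 animals. The gates were set on brightness and not on a cell type, so a group can hold several kinds of epithelial cell. In bulk samples of this kind fewer cells of a type and less RNA per cell cannot be told apart.

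Cytochrome P450 enzymes are heme proteins that use oxygen to oxidise their substrates. Most sit in the endoplasmic reticulum and take electrons from cytochrome P450 reductase, and a smaller number work in mitochondria with ferredoxin. Members of the lower-numbered families oxidise drugs and pollutants, the Cyp4 family and the Cyp2c and Cyp2j subfamilies oxidise fatty acids and arachidonic acid, and further families make or break down sterols, bile acids, steroid hormones, vitamin D and retinoic acid. In the mouse lung, club cells of the airways are the best known site of P450 enzymes, and Cyp2f2 in these cells turns naphthalene into a toxic epoxide.

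All values below are the deposited log2 values, and a difference of 1 is a doubling on that scale. The 18 arrays form 2 sets of 9 that differ in their medians and in the number of decimals given, called runs here, an earlier run of experiments 2 to 5 and a later run of experiments 7 to 9, with 3 arrays of each group in both. Wnthigh arrays came from experiments 2, 4, 5, 7, 8 and 9, and Wntlow and Wntnegative arrays from experiments 3, 4, 5, 7, 8 and 9, and values are listed in that order. Array medians lay between 4.55 and 4.68 for earlier and between 3.50 and 3.65 for later arrays, so groups were compared within runs. A group counts as above background in a run where its mean exceeds the mean background level of its arrays, the 95th percentile of 23 background control probe sets, which lay between 4.57 and 5.17. The top of the scale is the level that the brightest 0.5% of probe sets of an array exceed, between 16.51 and 17.33. The highest value of an array lay between 18.82 and 19.93, so this level is not a ceiling. Whether signal above it is compressed was not tested. As a rule of caution, a difference with the lower group under background, or the higher group at the top of the scale, is written as a lower limit.

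Airway and alveolar markers differed between the sorted groups, and these values stand beside the P450 results below. The log2 values of 5 club cell markers (Scgb1a1, Scgb3a2, Gabrp, Aldh1a1 and Gsta3) summed to 64.87 to 76.40 on Wnthigh, 77.13 to 85.40 on Wntlow and 47.51 to 55.72 on Wntnegative arrays. Sums over 5 ciliated cell markers were 75.04 to 77.01 in Wnthigh, 48.31 to 71.42 in Wntlow and 22.59 to 37.27 in Wntnegative cells, and Foxj1 had no probe set of its own. For 6 goblet cell markers the sums were 44.49 to 69.65 in Wnthigh, 75.01 to 86.03 in Wntlow and 27.19 to 36.75 in Wntnegative cells. The 6 alveolar type II markers summed to 71.95 to 99.70 in Wnthigh, 89.09 to 105.69 in Wntlow and 106.71 to 112.43 in Wntnegative cells. The 5 alveolar type I markers summed to 25.31 to 44.94, 37.95 to 49.67 and 43.22 to 51.35 in the same groups. All these ranges take in both runs, so they hold the offset between runs as well as the spread of a group. In Wnthigh against Wntnegative cells 4 goblet markers rose and 1 fell, and 1 alveolar type I marker rose and 4 fell. No basal, endothelial, fibroblast or smooth muscle marker was above background in both runs in any group, and of 4 leukocyte markers only Cd68 was. In the earlier run alone the basal marker Krt5 was above background in Wntlow cells and the fibroblast marker Col1a1 in Wnthigh and Wntlow cells, and Krt5 was higher in Wntlow than in Wntnegative cells by 0.52 (adjusted p = 0.0309). The part of these cell types in the P450 results was not tested. The Wntlow array of experiment 4 stood apart from the other Wntlow arrays of its run for several members. For the members named with values below, each call that changes without experiment 4 is given with that value. For the other members only counts without experiment 4 are given.

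Most P450 genes were not above background in these cells. Of the 89 members, 20 (22.47%) were above background in at least 1 group in both runs, against 12554 of all 30142 genes (41.65%). By group, 18 members were above background in Wnthigh, 19 in Wntlow and 13 in Wntnegative cells, and 12 were so in all 3 groups. The other 69 include all 14 Cyp2c genes, 6 of 7 Cyp3a genes, both Cyp1a genes and Cyp2e1, many but not all of which are best known from the liver. They also include the enzymes of steroid hormone synthesis of the Cyp11, Cyp17 and Cyp21 families, the bile acid enzymes Cyp7a1, Cyp8b1 and Cyp27a1, the Cyp26 enzymes that break down retinoic acid, and Cyp24a1 and Cyp27b1 of vitamin D metabolism. Cyp1a1, the classical target of the aryl hydrocarbon receptor, read 3.48, 3.41 and 3.47 in Wnthigh, 3.47, 3.57 and 3.47 in Wntlow, and 3.47, 3.58 and 3.44 in Wntnegative cells of the earlier run. Cyp1a1 on the later arrays read 2.89, 2.87 and 2.88 in Wnthigh, 2.85, 2.88 and 2.88 in Wntlow, and 2.88, 2.88 and 2.88 in Wntnegative cells. Neither the groups nor the arrays of a run differed by more than a small fraction of a log2 unit. Cyp2e1, the ethanol-inducible enzyme, read 3.48, 3.48 and 3.48 in Wnthigh, 3.48, 3.60 and 3.48 in Wntlow, and 3.48, 3.43 and 3.48 in Wntnegative cells of the earlier run. Cyp2e1 on the later arrays read 2.97, 2.97 and 2.97 in Wnthigh, 2.97, 2.94 and 2.97 in Wntlow, and 2.97, 2.86 and 3.03 in Wntnegative cells. Its values were under background in every group of both runs and nearly equal within a run.

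More members rose than fell in both reporter-positive groups. In Wnthigh against Wntnegative cells 20 members rose and 9 fell at an adjusted p under 0.05 (32.58% of 89, with 40.3% of all genes called in this comparison). Of these, 10 rose and 4 fell by at least 1 log2 unit, against 6.62% and 7.28% of all genes. Centring each array on its median gave 27 that rose and 5 that fell, with 20.5% of all genes higher and 19.4% lower under that setting. In Wntlow against Wntnegative cells 19 members rose and 2 fell (23.6%, with 25.5% of all genes called), and 11 rose by at least 1 log2 unit, against 4.32% of all genes. In limma 0 members fell by that much (against 3.32% of all genes), while 30 had an unadjusted p under 0.05 in either direction. Without experiment 4 2 members fell by at least 1 log2 unit, and array quality weights also gave 2. Centring arrays gave 30 members that rose and 2 that fell, with 17.1% of all genes higher and 9.11% lower. Between Wnthigh and Wntlow cells 8 members were higher and 11 lower in Wnthigh (21.35%, with 27.9% of all genes called), 3 and 8 of them by at least 1 log2 unit, against 4.27% and 4.83% of all genes. Among the 20 members above background in some group in both runs, 14 rose and 5 fell in Wnthigh against Wntnegative cells (95%). In Wntlow cells 15 rose and 1 fell (80%), and between Wnthigh and Wntlow cells 4 were higher and 8 lower (60%). Of the 12554 genes above background by that rule 71.7%, 49.1% and 55.4% were called. A gene can pass that rule through the group where it is high, so these shares are description only.

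By direction, 15.7% of all genes rose and 24.6% fell in Wnthigh against Wntnegative cells, 12.3% rose and 13.2% fell in Wntlow against Wntnegative cells, and 11.4% were higher and 16.4% lower in Wnthigh than in Wntlow cells. The median difference over the members was −0.02, 0.01 and −0.02 in these comparisons, against −0.05, −0.03 and −0.01 over all genes. All 29, 21 and 19 members called had the same sign in both runs. The fit that called them pools both runs, so this is not a separate check. The comparisons with Wntnegative cells share those arrays, so their values are given side by side and not as separate support. Of the members, 16 were called with a difference of at least 1 log2 unit and were above background where they were higher. The mean of 4 of these was highest in Wnthigh, of 10 in Wntlow and of 2 in Wntnegative cells. Not every highest mean was called above that of the next group. Cyp4b1, Cyp2f2, Cyp4f13 and Cyp2a4 were not called between Wnthigh and Wntlow cells, nor Cyp2r1 and Cyp3a13 between Wntlow and Wntnegative cells. Without the Wntlow arrays of experiments 3 and 4 the counts called higher and lower were 20 and 9 for Wnthigh against Wntnegative, 22 and 2 for Wntlow against Wntnegative, and 8 and 14 for Wnthigh against Wntlow cells.

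**Figure D1:**
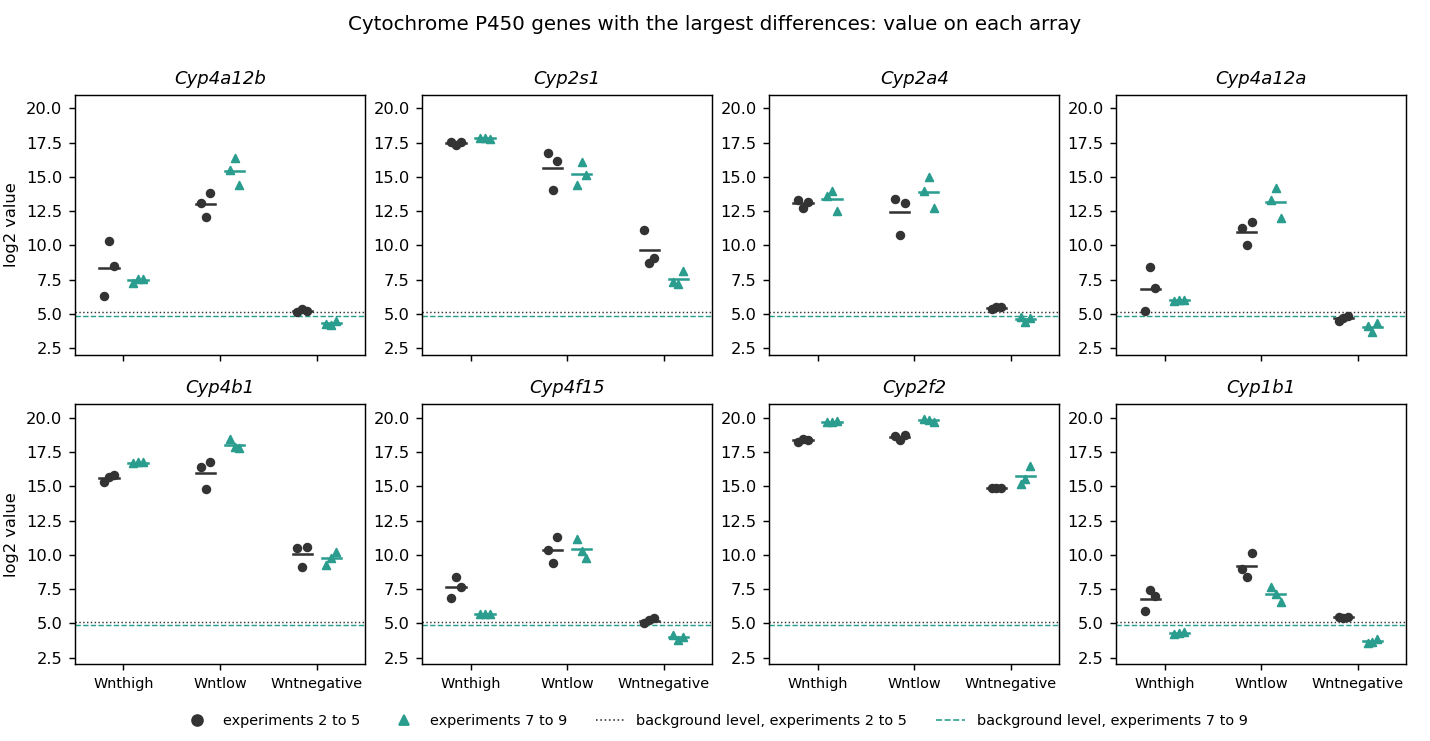
Deposited log2 values (y axis) of the 8 members with the largest differences on each array, by sorted group (x axis), with markers for the earlier and later run, short bars for the mean of 3 arrays, and lines for the background level of each run. Cyp4a12b, Cyp4a12a, Cyp4f15 and Cyp1b1 were highest in Wntlow cells and Cyp2s1 was highest in Wnthigh cells in both runs.

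The enzymes known for oxidising foreign and other small compounds (30 members) held 9 that rose and 4 that fell in Wnthigh against Wntnegative cells. In Wntlow against Wntnegative cells 6 rose and 1 fell, and 6 were higher and 2 lower in Wnthigh than in Wntlow cells. In these comparisons 40.3%, 25.5% and 27.9% of all genes were called, and 43.33%, 23.33% and 26.67% of these members. Cyp2s1, a P450 found mainly in epithelia outside the liver, had the largest difference of Wnthigh from Wntnegative cells. Cyp2s1 read 17.56, 17.33 and 17.55 in Wnthigh, 16.77, 14.04 and 16.15 in Wntlow, and 11.12, 8.73 and 9.08 in Wntnegative cells of the earlier run. Cyp2s1 on the later arrays read 17.86, 17.84 and 17.79 in Wnthigh, 14.43, 16.11 and 15.11 in Wntlow, and 7.35, 7.17 and 8.14 in Wntnegative cells. The 3 groups did not overlap in either run, Wnthigh cells were at the top of the scale, and the Wntnegative array of experiment 3 was above the others of its group. The difference from Wntnegative cells was at least 9.06 ± 0.55 (SE, adjusted p = 5.7e-09) in Wnthigh, and it was 6.83 ± 0.55 (SE, adjusted p = 5.58e-07) in Wntlow cells. Cyp2s1 was higher in Wnthigh than in Wntlow cells by at least 2.22 ± 0.55 (SE, adjusted p = 0.00515), with an adjusted p of 0.217 in the earlier run alone and 0.00396 in the later one.

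Cyp2a4, a steroid 15-alpha-hydroxylase, rose in both reporter-positive groups. Cyp2a4 read 13.34, 12.69 and 13.18 in Wnthigh, 13.36, 10.78 and 13.06 in Wntlow, and 5.32, 5.50 and 5.47 in Wntnegative cells of the earlier run. Cyp2a4 on the later arrays read 13.62, 13.95 and 12.50 in Wnthigh, 13.95, 15.00 and 12.69 in Wntlow, and 4.79, 4.40 and 4.68 in Wntnegative cells. Wnthigh and Wntlow values overlapped in both runs and lay far above Wntnegative cells, which were under background in the later run. The difference from Wntnegative cells was at least 8.19 ± 0.51 (SE, adjusted p = 6.44e-09) in Wnthigh and at least 8.12 ± 0.51 (SE, adjusted p = 5.74e-08) in Wntlow cells, and that of Wnthigh from Wntlow cells was 0.07 ± 0.51 (SE, adjusted p = 0.954).

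Cyp2a5, which encodes coumarin 7-hydroxylase, is a near-identical copy of Cyp2a4, and the array has a probe set assigned to both symbols. In the earlier and later run that shared probe set averaged 13.94 and 14.31 in Wnthigh, 13.25 and 14.84 in Wntlow, and 6.11 and 5.00 in Wntnegative cells. It was higher in the same groups as the Cyp2a4 probe set, so which of the copies gave the signal is uncertain. The 250 bases before their starts in RefSeq (GRCm38.p6) are at chr7:26306942-26307191 and chr7:26835089-26835338, both on the plus strand. Bases before a start are not part of the transcript, so their likeness does not tell which copy a probe set reads. No transcript or probe sequences were compared. Aligned, 245 of 251 positions were the same (97.61%), 4 held different bases and 2 at the window ends had no partner. Capitals mark the bases that differ or have no partner.
Cyp2a4: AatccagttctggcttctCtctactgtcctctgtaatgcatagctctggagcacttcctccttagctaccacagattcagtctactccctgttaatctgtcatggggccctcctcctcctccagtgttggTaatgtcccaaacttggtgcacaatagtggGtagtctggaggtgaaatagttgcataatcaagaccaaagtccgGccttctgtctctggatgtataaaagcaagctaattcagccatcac
Cyp2a5: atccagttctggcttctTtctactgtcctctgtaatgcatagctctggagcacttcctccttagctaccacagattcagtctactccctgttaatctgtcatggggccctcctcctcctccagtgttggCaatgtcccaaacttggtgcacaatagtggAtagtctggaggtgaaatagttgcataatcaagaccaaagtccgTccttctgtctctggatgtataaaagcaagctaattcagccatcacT

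Cyp2f2, the naphthalene-activating enzyme of club cells, was far above background in all groups and rose in both reporter-positive groups. Cyp2f2 read 18.26, 18.42 and 18.34 in Wnthigh, 18.69, 18.35 and 18.72 in Wntlow, and 14.89, 14.87 and 14.88 in Wntnegative cells of the earlier run. Cyp2f2 on the later arrays read 19.71, 19.71 and 19.74 in Wnthigh, 19.87, 19.86 and 19.71 in Wntlow, and 15.17, 15.55 and 16.49 in Wntnegative cells. Both reporter-positive groups were at the top of the scale and did not overlap Wntnegative cells. Against Wntnegative cells the difference was at least 3.72 ± 0.16 (SE, adjusted p = 2.5e-09) in Wnthigh and at least 3.90 ± 0.16 (SE, adjusted p = 3.69e-09) in Wntlow cells. That of Wnthigh from Wntlow cells was −0.17 ± 0.16 (SE, adjusted p = 0.544), with both groups at the top of the scale. The club cell marker Scgb1a1, at the top of the scale in both reporter-positive groups, rose by at least 2.26 in Wnthigh (adjusted p = 2.73e-05) and by at least 3.16 in Wntlow cells (adjusted p = 6.03e-06), and its part in the Cyp2f2 values was not tested. The 250 bases before the start of Cyp2f2 (chr7:27119705-27119954, plus strand, GRCm38.p6, RefSeq) hold CAAGTG, core letters bound by NKX2-1, a factor of lung epithelium, in capitals here.
Cyp2f2: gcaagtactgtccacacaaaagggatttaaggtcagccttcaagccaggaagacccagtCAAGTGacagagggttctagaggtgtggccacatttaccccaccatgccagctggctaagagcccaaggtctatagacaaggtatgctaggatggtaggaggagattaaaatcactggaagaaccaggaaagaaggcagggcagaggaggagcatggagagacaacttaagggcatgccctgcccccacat

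Cyp2b10, an inducible drug-metabolising enzyme and a classical target of the receptor CAR, was graded over the 3 groups. Cyp2b10 read 15.60, 15.47 and 15.75 in Wnthigh, 15.15, 13.50 and 14.57 in Wntlow, and 14.04, 13.38 and 13.17 in Wntnegative cells of the earlier run. Cyp2b10 on the later arrays read 15.98, 16.17 and 15.87 in Wnthigh, 13.98, 14.40 and 13.94 in Wntlow, and 12.76, 13.29 and 13.16 in Wntnegative cells. Wnthigh arrays were above both other groups in each run, while Wntlow and Wntnegative arrays overlapped in the earlier run. Against Wntnegative cells the difference was 2.51 ± 0.25 (SE, adjusted p = 4.26e-07) in Wnthigh and 0.96 ± 0.25 (SE, adjusted p = 0.00821) in Wntlow cells, and that of Wnthigh from Wntlow cells was 1.55 ± 0.25 (SE, adjusted p = 0.000124). The rise in Wntlow cells did not pass without experiment 5 (adjusted p = 0.0542). In the earlier run alone the Wntlow rise and the difference of Wnthigh from Wntlow cells had adjusted p = 0.239 and 0.112.

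Its relatives Cyp2b13, Cyp2b23, Cyp2b9 and Cyp2b19, not above background in both runs in any group, rose in Wnthigh against Wntnegative cells by 0.82, 0.80, 0.75 and 0.62 (adjusted p = 3.27e-05, 1.05e-05, 0.000566 and 2.29e-05). These are probe sets of closely related genes, so signal shared with Cyp2b10 cannot be told apart from their own. The bases before the starts of Cyp2b13 and Cyp2b9 were 99.2% the same, and those of Cyp2b10 matched its relatives at 62.81% to 70.0% of aligned positions. These bases are not part of the transcripts, so they do not bear on shared signal.

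Cyp1b1, which oxidises polycyclic hydrocarbons and oestradiol, was highest in Wntlow cells. Cyp1b1 read 5.92, 7.43 and 7.00 in Wnthigh, 8.94, 8.40 and 10.11 in Wntlow, and 5.49, 5.39 and 5.46 in Wntnegative cells of the earlier run. Cyp1b1 on the later arrays read 4.24, 4.31 and 4.40 in Wnthigh, 7.62, 7.15 and 6.58 in Wntlow, and 3.54, 3.65 and 3.85 in Wntnegative cells. The groups did not overlap within a run, Wntlow arrays were the highest, and Wnthigh and Wntnegative cells were under background in the later run. Cyp1b1 was higher in Wntlow than in Wntnegative cells by at least 3.57 ± 0.28 (SE, adjusted p = 4.77e-07), and its difference of Wnthigh from Wntlow cells was −2.58 ± 0.28 (SE, adjusted p = 6.65e-06), also a lower limit in size. The difference of Wnthigh from Wntnegative cells was 0.99 ± 0.28 (SE, adjusted p = 0.00968), with adjusted p = 0.0887 in the earlier run alone and 0.0956 in the later one.

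Ahr, the receptor known to drive Cyp1b1 and Cyp1a1, was higher in Wntlow than in Wntnegative cells by 2.47 (adjusted p = 3.47e-05), and its difference of Wnthigh from Wntnegative cells was 0.02 (adjusted p = 0.963). Ahr with its partner Arnt binds the core GCGTG. This core was searched on both strands, and the other strand of it reads CACGC. The bases before the starts of Cyp1b1 (chr17:79715062-79715311, minus strand), Cyp1a1 (chr9:57697363-57697612, plus strand) and Cyp2b10 (chr7:25897408-25897657, plus strand) are shown from RefSeq (GRCm38.p6). They are shown since Cyp1b1 was highest in Wntlow cells, Cyp1a1 was under background and Cyp2b10 was highest in Wnthigh cells. The Cyp1a1 window lies inside the span RefSeq gives for that gene, chr9:57687928-57703824, and not before its first base. Capitals mark this core.
Cyp1b1: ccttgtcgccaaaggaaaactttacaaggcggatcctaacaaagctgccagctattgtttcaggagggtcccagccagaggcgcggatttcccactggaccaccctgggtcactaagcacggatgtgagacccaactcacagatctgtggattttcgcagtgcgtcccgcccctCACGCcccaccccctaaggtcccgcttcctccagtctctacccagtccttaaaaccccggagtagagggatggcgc
Cyp1a1: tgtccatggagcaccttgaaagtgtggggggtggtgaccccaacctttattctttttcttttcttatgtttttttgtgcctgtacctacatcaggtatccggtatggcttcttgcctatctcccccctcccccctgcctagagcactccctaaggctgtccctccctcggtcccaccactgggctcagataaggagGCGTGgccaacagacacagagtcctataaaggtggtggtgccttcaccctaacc
Cyp2b10: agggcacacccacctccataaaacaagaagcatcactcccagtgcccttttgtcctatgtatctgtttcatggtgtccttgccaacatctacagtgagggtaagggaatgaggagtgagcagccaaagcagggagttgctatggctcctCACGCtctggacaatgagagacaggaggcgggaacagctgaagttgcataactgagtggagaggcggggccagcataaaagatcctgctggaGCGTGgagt

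The GCGTG core stood in 3 of the 12 named members with an entry in the promoter table (Cyp1b1, Cyp4f39 and Cyp2b10), in 14 of the 67 members with an entry, and in 28.16% of 32851 promoters. CAAGTG was found in 2 named members (Cyp2f2 and Cyp3a13), 13 members and 11.61% of promoters. The TCF/Lef core CTTTGAT was found in 0 named members, 1 member and 3.21% of promoters, and the DR1 repeat of nuclear receptors in 0 members and 0.03% of promoters. Both strands were searched, no motif contains another, and these are matches of letters in a short window.

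Cyp3a13, a member of the drug-oxidising Cyp3a subfamily, was lowest in Wnthigh cells. Cyp3a13 averaged 8.08 ± 0.46 in Wnthigh, 9.42 ± 0.40 in Wntlow and 9.55 ± 0.12 in Wntnegative cells of the earlier run, and 6.43 ± 0.26, 7.72 ± 0.07 and 7.87 ± 0.28 in the same groups of the later run (SD, n = 3 each). Wnthigh arrays lay below both other groups in each run. It fell by 1.46 (SE 0.15, adjusted p = 9.57e-07) in Wnthigh against Wntnegative cells and by 1.32 (SE 0.15, adjusted p = 1.03e-05) against Wntlow cells, and the difference of Wntlow from Wntnegative cells was −0.14 ± 0.15 (SE, adjusted p = 0.564). Cyp2d22 belongs to the Cyp2d subfamily, which oxidises many drugs, and was highest in Wntnegative cells. Cyp2d22 averaged 5.40 ± 0.23 in Wnthigh, 6.15 ± 0.84 in Wntlow and 6.97 ± 0.05 in Wntnegative cells of the earlier run, and 3.95 ± 0.13, 4.27 ± 0.11 and 5.36 ± 0.22 in the later run (SD, n = 3 each). It fell by 1.49 (SE 0.20, adjusted p = 1.19e-05) in Wnthigh and by 0.96 (SE 0.20, adjusted p = 0.00188) in Wntlow against Wntnegative cells, the second with adjusted p = 0.225 in the earlier run alone. Both reporter-positive groups were under background in the later run, so these falls are lower limits there. The Wntlow array of experiment 4 read 7.06 for Cyp2d22, against 5.40 and 5.99 on the other Wntlow arrays of its run. The difference of Wnthigh from Wntlow cells, −0.54 ± 0.20 (SE, adjusted p = 0.0569), was −0.36 (adjusted p = 0.032) without experiment 4 and −0.67 (adjusted p = 0.0148) without experiment 3.

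**Figure D2:**
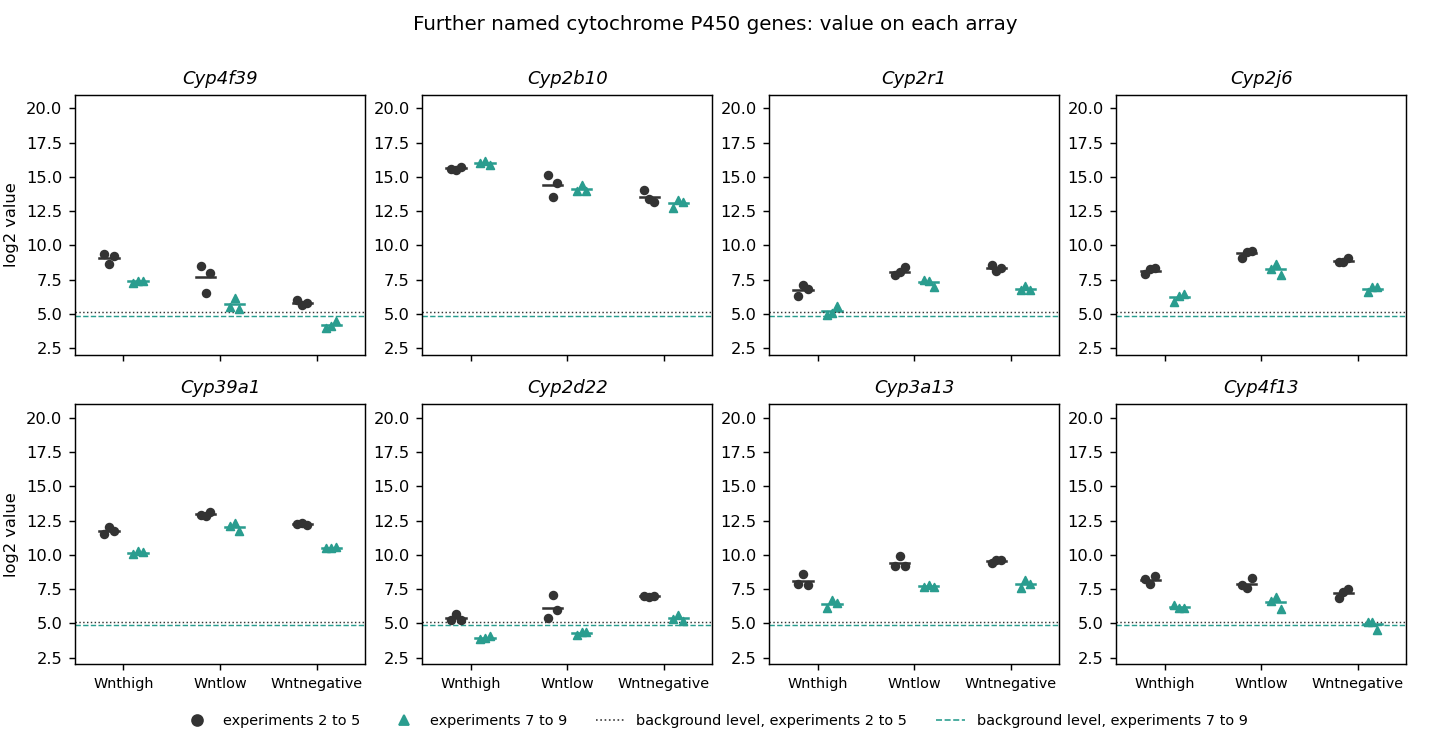
Deposited log2 values (y axis) of the other 8 named members on each array, by sorted group (x axis), with markers for the earlier and later run, short bars for the mean of 3 arrays, and lines for the background level of each run. The means of Cyp2b10 and Cyp4f39 step down over Wnthigh, Wntlow and Wntnegative cells, while Cyp2r1, Cyp2j6, Cyp39a1 and Cyp3a13 are lowest in Wnthigh cells.

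The fatty acid and arachidonic acid enzymes (37 members) held 10 that rose and 2 that fell in Wnthigh against Wntnegative cells. In Wntlow against Wntnegative cells 11 rose and 1 fell, and 2 were higher and 6 lower in Wnthigh than in Wntlow cells. In these comparisons 40.3%, 25.5% and 27.9% of all genes were called, and 32.43%, 32.43% and 21.62% of these members. Cyp4b1, a fatty acid hydroxylase of lung that also activates the toxin 4-ipomeanol, rose in both reporter-positive groups. Cyp4b1 read 15.32, 15.65 and 15.82 in Wnthigh, 16.39, 14.77 and 16.80 in Wntlow, and 10.52, 9.12 and 10.58 in Wntnegative cells of the earlier run. Cyp4b1 on the later arrays read 16.71, 16.74 and 16.74 in Wnthigh, 18.42, 17.85 and 17.77 in Wntlow, and 9.28, 9.79 and 10.23 in Wntnegative cells. Wntnegative arrays lay below both other groups in each run, and Wnthigh and Wntlow arrays were apart only in the later run, where both were at the top of the scale. Compared with Wntnegative cells Cyp4b1 was higher by at least 6.24 ± 0.43 (SE, adjusted p = 1.17e-08) in Wnthigh and at least 7.08 ± 0.43 (SE, adjusted p = 5.31e-08) in Wntlow cells. That of Wnthigh from Wntlow cells was −0.84 ± 0.43 (SE, adjusted p = 0.187), and it was −1.18 (adjusted p = 0.0334) without experiment 4 and −1.40 (adjusted p = 0.00887) without the Wntlow arrays of experiments 3 and 4.

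Cyp4a12b and Cyp4a12a, neighbouring near-identical copies of a fatty acid omega-hydroxylase that makes the eicosanoid 20-HETE, had the largest differences between Wntlow and Wnthigh cells. Cyp4a12b read 6.30, 10.32 and 8.52 in Wnthigh, 13.08, 12.05 and 13.84 in Wntlow, and 5.11, 5.35 and 5.24 in Wntnegative cells of the earlier run. Cyp4a12b on the later arrays read 7.26, 7.53 and 7.53 in Wnthigh, 15.51, 16.39 and 14.43 in Wntlow, and 4.28, 4.22 and 4.48 in Wntnegative cells. The groups did not overlap in either run, with Wntlow highest and Wntnegative lowest, and the Wnthigh array of experiment 4 was the highest of its group. Cyp4a12b was higher than in Wntnegative cells by at least 3.13 ± 0.70 (SE, adjusted p = 0.00171) in Wnthigh and by at least 9.44 ± 0.70 (SE, adjusted p = 2.91e-07) in Wntlow cells, since Wntnegative cells were under background in the later run. Its difference of Wnthigh from Wntlow cells was −6.31 ± 0.70 (SE, adjusted p = 7.64e-06).

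Cyp4a12a read 5.18, 8.45 and 6.92 in Wnthigh, 11.27, 10.01 and 11.73 in Wntlow, and 4.51, 4.67 and 4.83 in Wntnegative cells of the earlier run. Cyp4a12a on the later arrays read 5.92, 6.01 and 6.01 in Wnthigh, 13.32, 14.16 and 11.97 in Wntlow, and 4.09, 3.71 and 4.33 in Wntnegative cells. As for Cyp4a12b, Wntlow arrays were highest and the groups did not overlap in either run, and it is uncertain whether the probe sets separate the copies. The difference from Wntnegative cells, under background in both runs, was at least 2.06 ± 0.62 (SE, adjusted p = 0.0138) in Wnthigh and at least 7.72 ± 0.62 (SE, adjusted p = 5.58e-07) in Wntlow cells, and that of Wnthigh from Wntlow cells was −5.67 ± 0.62 (SE, adjusted p = 7.02e-06). The difference of Wnthigh from Wntnegative cells had adjusted p = 0.083 in the earlier run alone. The goblet cell markers Muc5b and Tff2 rose in Wntlow against Wntnegative cells by at least 10.38 and 11.84 (adjusted p = 5.15e-07 and 1.81e-07) and differed between Wnthigh and Wntlow cells by −6.68 and −6.63 (adjusted p = 1.51e-05 and 1.75e-05). Their part in the Cyp4a12 values was not tested.

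Of the Cyp4f subfamily, whose members oxidise leukotrienes and long-chain fatty acids, 6 of 9 members were above background. Cyp4f15 read 6.88, 8.38 and 7.62 in Wnthigh, 10.36, 9.40 and 11.32 in Wntlow, and 5.01, 5.21 and 5.36 in Wntnegative cells of the earlier run. Cyp4f15 on the later arrays read 5.72, 5.66 and 5.72 in Wnthigh, 11.13, 10.31 and 9.74 in Wntlow, and 4.11, 3.79 and 4.02 in Wntnegative cells. The groups did not overlap, with Wntlow cells highest in both runs and Wntnegative cells under background in the later run. Cyp4f15 was higher than in Wntnegative cells by 2.07 ± 0.39 (SE, adjusted p = 0.000343) in Wnthigh and by 5.79 ± 0.39 (SE, adjusted p = 1.09e-07) in Wntlow cells, both lower limits in the later run, and its difference of Wnthigh from Wntlow cells was −3.72 ± 0.39 (SE, adjusted p = 4.95e-06).

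Cyp4f39, whose human relative makes omega-hydroxylated lipids of the skin barrier, ran in the opposite order between the reporter-positive groups. Cyp4f39 read 9.35, 8.65 and 9.25 in Wnthigh, 8.48, 6.49 and 8.01 in Wntlow, and 5.98, 5.66 and 5.80 in Wntnegative cells of the earlier run. Cyp4f39 on the later arrays read 7.26, 7.42 and 7.41 in Wnthigh, 5.52, 6.17 and 5.37 in Wntlow, and 3.97, 4.15 and 4.47 in Wntnegative cells. The groups did not overlap in either run, with Wnthigh cells highest. The difference from Wntnegative cells, under background in the later run, was at least 3.22 ± 0.26 (SE, adjusted p = 5e-08) in Wnthigh and at least 1.67 ± 0.26 (SE, adjusted p = 0.00018) in Wntlow cells, and that of Wnthigh from Wntlow cells was 1.55 ± 0.26 (SE, adjusted p = 0.000197). In the earlier run alone the Wntlow rise and the difference of Wnthigh from Wntlow cells had adjusted p = 0.0589 and 0.106. Cyp4f13 rose against Wntnegative cells by 1.12 ± 0.21 (SE, adjusted p = 0.000351) in Wnthigh and by 1.16 ± 0.21 (SE, adjusted p = 0.000624) in Wntlow cells, the second with adjusted p = 0.135 in the earlier run alone. Cyp4f16 rose by 0.24 in Wnthigh and 0.23 in Wntlow cells, and Cyp4f37 by at least 0.25 and 0.26, with Wntnegative cells under background in the later run. Cyp4f17 rose by 0.64 in Wnthigh cells (adjusted p = 0.000182).

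Cyp2j6, an arachidonic acid epoxygenase found in many tissues, was highest in Wntlow and lowest in Wnthigh cells. Cyp2j6 read 7.90, 8.26 and 8.32 in Wnthigh, 9.09, 9.53 and 9.60 in Wntlow, and 8.80, 8.80 and 9.05 in Wntnegative cells of the earlier run. Cyp2j6 on the later arrays read 5.84, 6.29 and 6.49 in Wnthigh, 8.28, 8.62 and 7.82 in Wntlow, and 6.57, 6.97 and 6.99 in Wntnegative cells. The groups did not overlap within a run. Cyp2j6 fell by 0.68 (SE 0.19, adjusted p = 0.00824) in Wnthigh against Wntnegative cells, with adjusted p = 0.112 in the later run alone. It rose by 0.96 ± 0.19 (SE, adjusted p = 0.00121) in Wntlow against Wntnegative cells, with adjusted p = 0.104 in the earlier run alone, and its difference of Wnthigh from Wntlow cells was −1.64 ± 0.19 (SE, adjusted p = 9.46e-06). Cyp2j9, of the same subfamily but not above background in both runs in any group, rose by 0.70 in Wntlow against Wntnegative cells (adjusted p = 0.000337) and differed by −0.86 between Wnthigh and Wntlow cells (adjusted p = 3.28e-05). Of 13 neighbouring Cyp2c genes on chromosome 19, also epoxygenases and related enzymes, 0 were called in any comparison by limma, with 1 at an unadjusted p under 0.05 in each comparison. Cyp2c23, which lies apart from them, was lower in Wnthigh (−1.04, adjusted p = 0.000692) and in Wntlow cells (−0.86, adjusted p = 0.00579) than in Wntnegative cells. It was under background in every group of the later run and in Wnthigh cells of the earlier run, so both are lower limits in size. The Wntlow array of experiment 4 read 6.22, against 4.83 and 4.95 on the other Wntlow arrays of its run. That value lay within the range of the Wntnegative arrays of its run, 6.15 to 6.67.

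The sterol, bile acid and steroid enzymes (11 members) held 1 that rose and 2 that fell in Wnthigh against Wntnegative cells. In Wntlow against Wntnegative cells 2 rose, and 2 were lower in Wnthigh than in Wntlow cells. In these comparisons 40.3%, 25.5% and 27.9% of all genes were called, and 27.27%, 18.18% and 18.18% of these members. Those called in the first comparison were Cyp17a1 (0.14, adjusted p = 0.0367), Cyp27a1 (−0.11, adjusted p = 0.0288) and Cyp39a1, and none passed with the experiment as a block (adjusted p = 0.127 for Cyp17a1 and 0.131 for Cyp27a1, both under background in every group). Cyp39a1, the 7-alpha-hydroxylase of 24-hydroxycholesterol, was the only one of them above background. Cyp39a1 averaged 11.74 ± 0.25 in Wnthigh, 12.96 ± 0.14 in Wntlow and 12.24 ± 0.07 in Wntnegative cells of the earlier run, and 10.15 ± 0.11, 12.06 ± 0.28 and 10.53 ± 0.06 in the later run (SD, n = 3 each). Its groups did not overlap within a run, and Wntlow was highest in both. Cyp39a1 rose by 1.12 ± 0.14 (SE, adjusted p = 3.79e-05) in Wntlow against Wntnegative cells, and its difference of Wnthigh from Wntlow cells was −1.56 ± 0.14 (SE, adjusted p = 2.49e-06). That of Wnthigh from Wntnegative cells, −0.44 ± 0.14 (SE, adjusted p = 0.0205), did not pass with the experiment as a block (adjusted p = 0.0832), with each array centred on its median (adjusted p = 0.0579), without experiment 5 (adjusted p = 0.0666), without experiment 9 (adjusted p = 0.0598) or in the later run alone (adjusted p = 0.0859). Cyp7b1, which also hydroxylates oxysterols, rose by 0.88 in Wntlow against Wntnegative cells (adjusted p = 0.000325) but was not above background in both runs in any group.

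Cyp2r1, the vitamin D 25-hydroxylase, was the only vitamin D enzyme above background. Cyp2r1 read 6.30, 7.13 and 6.82 in Wnthigh, 7.82, 8.03 and 8.40 in Wntlow, and 8.55, 8.14 and 8.31 in Wntnegative cells of the earlier run. Cyp2r1 on the later arrays read 4.96, 5.08 and 5.61 in Wnthigh, 7.47, 7.43 and 6.98 in Wntlow, and 6.75, 7.02 and 6.75 in Wntnegative cells. Wnthigh arrays lay below both other groups in each run, and Wntlow and Wntnegative arrays overlapped in both. It fell by 1.60 (SE 0.18, adjusted p = 2.46e-06) in Wnthigh against Wntnegative cells and by 1.70 (SE 0.18, adjusted p = 6.37e-06) against Wntlow cells, and the difference of Wntlow from Wntnegative cells was 0.10 ± 0.18 (SE, adjusted p = 0.747). Of the 3 Cyp26 enzymes of retinoic acid breakdown, 0 were called by limma in any comparison and 0 had an unadjusted p under 0.05. Cyp20a1, a P450 of unknown function, was above background in all groups, with differences of 0.21, 0.14 and 0.07 that did not pass (adjusted p = 0.144, 0.398 and 0.739).

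Several members that moved are neighbours in the RefSeq gene order (GRCm38.p6, members less than 1 Mb apart). In the group of 12 from Cyp2s1 to Cyp2t4 on chromosome 7, which holds Cyp2b10, Cyp2a4 and Cyp2f2, 8 rose in Wnthigh and 5 in Wntlow against Wntnegative cells, 6 were higher in Wnthigh than in Wntlow cells, and 0 were called lower in any of these. Of these 12, 4 were above background in at least 1 group in both runs. In the group of 8 Cyp4f genes on chromosome 17, 6 rose in Wnthigh and 6 in Wntlow cells, with 2 higher and 2 lower in Wnthigh than in Wntlow cells. On chromosome 4, 3 of the 7 genes from Cyp4x1 to Cyp4b1 rose in Wnthigh and 3 in Wntlow cells, while Cyp4a14, Cyp4a31 and Cyp4a32, which lie between Cyp4a12b and Cyp4b1, were not above background in any group. Of the 8 Cyp2d genes on chromosome 15, 3 fell in Wnthigh and 1 in Wntlow cells. Only Cyp2d22 of these 8 was above background in both runs in any group, and only 1 of the falls in Wnthigh reached 1 log2 unit. Of 6 neighbouring Cyp3a genes on chromosome 5, 0 were called by limma and 0 had an unadjusted p under 0.05. Over all genes 15.7% rose and 24.6% fell in Wnthigh and 12.3% rose and 13.2% fell in Wntlow against Wntnegative cells, and 11.4% were higher and 16.4% lower in Wnthigh than in Wntlow cells. Related neighbours can share signal on an array, so these are not counts of independent genes.

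**Figure D3:**
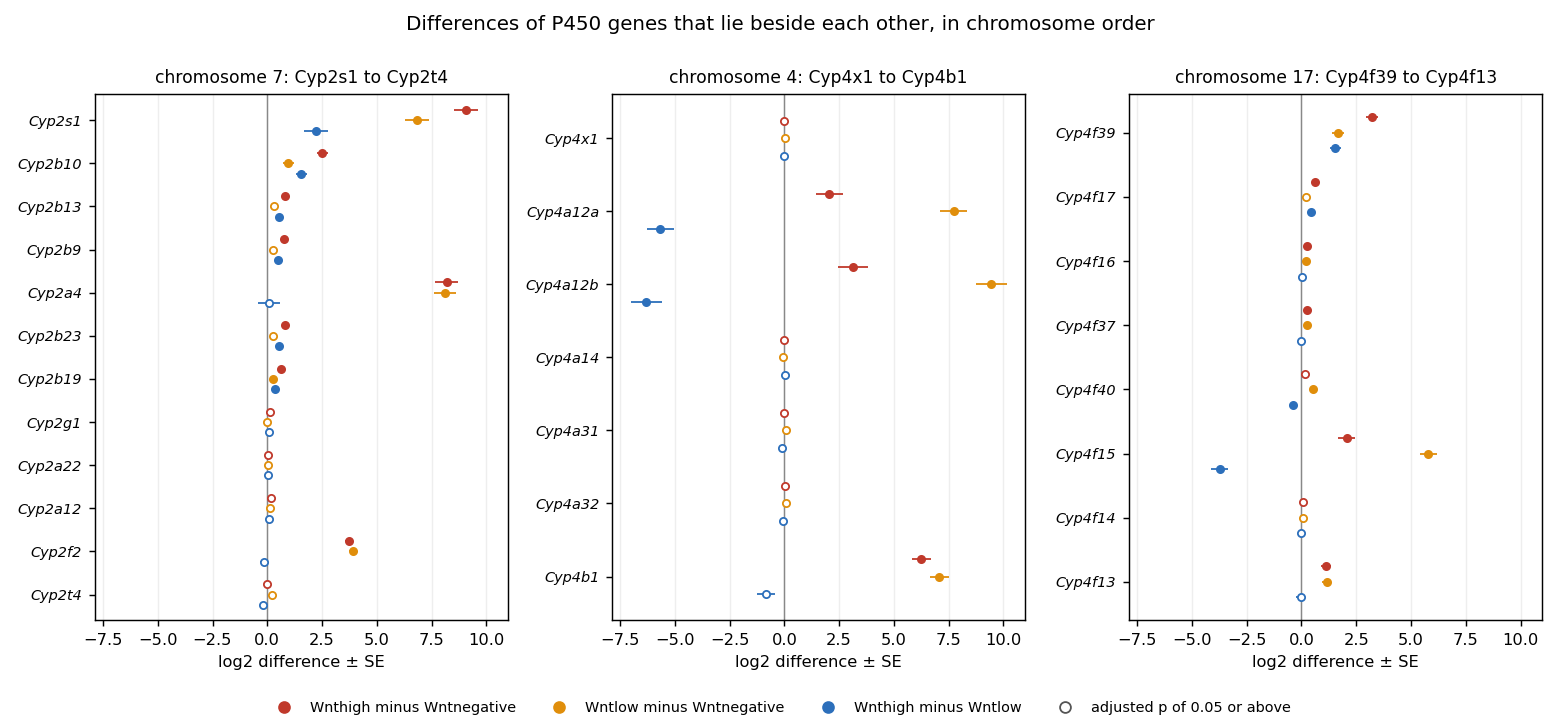
Log2 differences (x axis, ± SE) of neighbouring P450 genes on chromosomes 7, 4 and 17, in gene order, for Wnthigh minus Wntnegative, Wntlow minus Wntnegative and Wnthigh minus Wntlow; open points have an adjusted p of 0.05 or above. On chromosome 7 all filled points lie above 0, while on chromosome 4 Cyp4a12a and Cyp4a12b lie at 2.06 and 3.13 for Wnthigh and at 7.72 and 9.44 for Wntlow over Wntnegative cells.

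A list of 34, called partner genes here, held electron donors, membrane partners, heme synthesis enzymes and regulators of P450 genes. It also held 4 epoxide hydrolases and 2 further P450 enzymes, Tbxas1 and Ptgis. Of the list, 29 had a probe set of their own. Cytochrome P450 reductase (Por), Cyb5a and Fdxr, which pass electrons, did not. Of the 29, 8 rose and 6 fell in Wnthigh against Wntnegative cells, 9 rose and 3 fell in Wntlow against Wntnegative cells, and 5 were higher and 7 lower in Wnthigh than in Wntlow cells, with 40.3%, 25.5% and 27.9% of all genes called. Pgrmc1, a heme-binding partner of P450 enzymes, rose by 4.91 in Wnthigh (adjusted p = 1.51e-08) and by 5.06 in Wntlow cells (adjusted p = 1.49e-07). Alas1, the rate-limiting enzyme of heme synthesis in most tissues, rose by 3.57 (adjusted p = 3.31e-08) and 3.62 (adjusted p = 3.32e-07) in the same groups. Alad, the next enzyme of that pathway, fell by 2.82 in Wnthigh cells (adjusted p = 3.15e-07), with −0.51 in Wntlow cells (adjusted p = 0.194). Cyb5b, the cytochrome b5 of the mitochondrial outer membrane, fell by 2.02 in Wnthigh (adjusted p = 1.25e-05) and by 1.27 in Wntlow cells (adjusted p = 0.00223). The mitochondrial electron carrier Fdx1 fell by 0.92 in Wnthigh cells (adjusted p = 6.93e-05).

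Of 11 measured regulators of P450 genes, 2 rose and 1 fell in Wnthigh, and 3 rose and 2 fell in Wntlow against Wntnegative cells. In these comparisons 40.3% and 25.5% of all genes were called, and 27.27% and 45.45% of these regulators. Nr1i2, the xenobiotic receptor PXR, rose by 2.94 in Wnthigh (adjusted p = 1.9e-08) and by 0.76 in Wntlow cells (adjusted p = 0.0147), and was above background in both runs only in Wnthigh cells, so these are lower limits in size. Its dimer partner Rxra rose by 0.82 in Wnthigh (adjusted p = 6.61e-07) and by 0.30 in Wntlow cells (adjusted p = 0.0143). Nr1i3, the receptor CAR that drives Cyp2b10 in liver, and the liver factor Hnf4a were under background in all groups. Of the epoxide hydrolase family, which opens epoxides such as those P450 enzymes make, Ephx1 rose by 2.84 in Wnthigh (adjusted p = 1.48e-07) and by 2.97 in Wntlow cells (adjusted p = 9.6e-07). Its relative Ephx4 rose by at least 4.44 in Wnthigh (adjusted p = 1.08e-07) and by at least 1.73 in Wntlow cells (adjusted p = 0.00301). The hepatocyte markers Apoa1 and Ttr were under background in all groups, and Alb had a difference of Wnthigh from Wntnegative cells of −2.20 (adjusted p = 6.17e-05), under background only in Wnthigh cells of the later run.

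**Figure D4:**
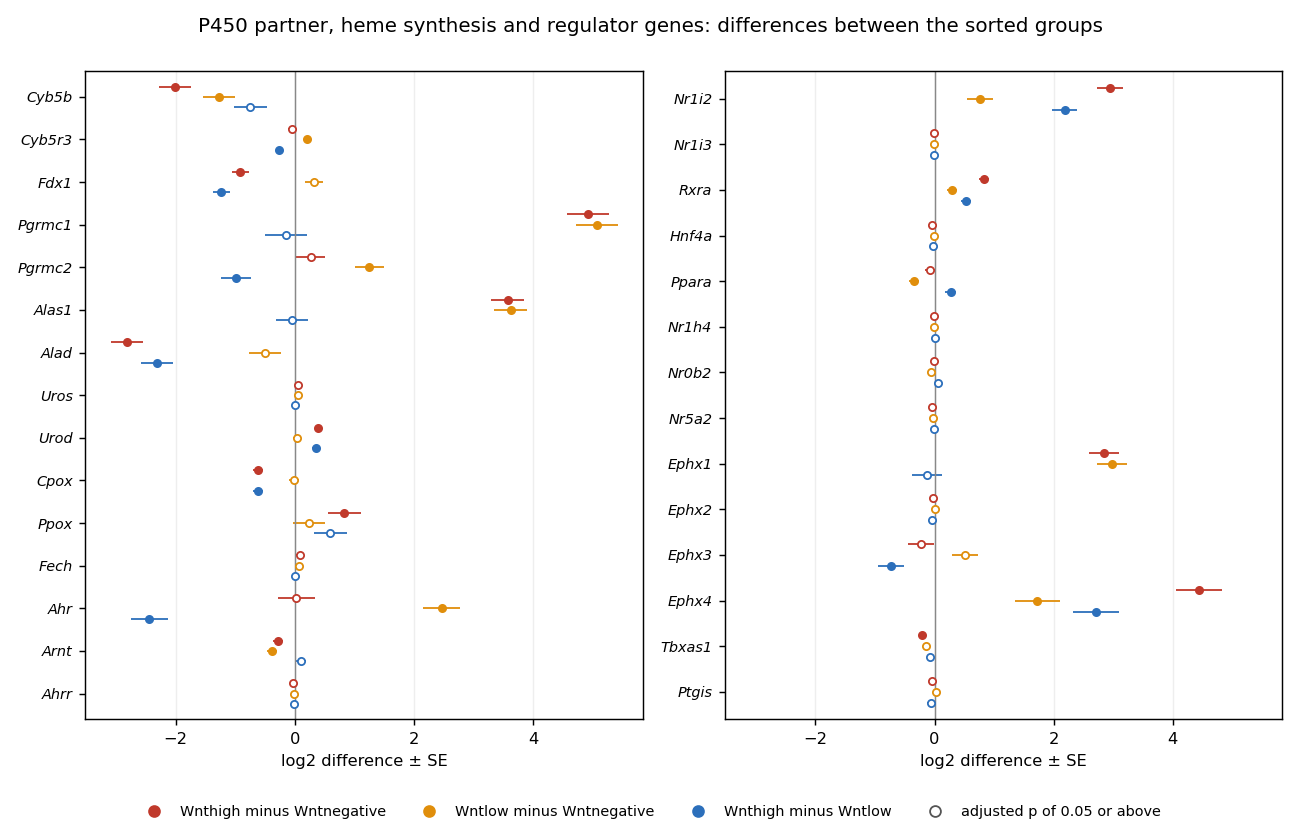
Log2 differences (x axis, ± SE) of the 29 measured genes of P450 partners, heme synthesis, regulators and epoxide hydrolases, including the P450 enzymes Tbxas1 and Ptgis, for Wnthigh minus Wntnegative, Wntlow minus Wntnegative and Wnthigh minus Wntlow; open points have an adjusted p of 0.05 or above. Pgrmc1, Alas1, Ephx1 and Ephx4 lie above 0 for both reporter-positive groups, Ahr for Wntlow cells, and Alad and Cyb5b below 0 for Wnthigh cells.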

How the data were processed

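The authors deposited log2 values of 72688 probe sets on 18 Affymetrix arrays, made with RMA per the submitters' processing notes, from 8 ng of total RNA labelled with biotin through the WT Pico kit per the labels' protocols. The software and chip library behind RMA, with the genome build, were not given in the sources used here. Values reach 19.93, beyond a 16-bit scanner's log2 range, so differences are on the deposited scale and are not ratios of RNA amounts.

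Gene names came from the platform's annotation. Leaving out controls, 65956 probe sets remained, of which 30604 had 1 symbol, 2146 several and 33206 none. For 355 genes the probe set of highest mean was chosen among several. Arrays fell into runs by their decimals and medians, so run was a term. limma 3.58.1 in R 4.3.3 was fitted to all arrays with group and run, two-sided, with Benjamini-Hochberg adjustment over 30142 genes of each comparison. The code was tested on simulated data, and the number of arrays limits the precision. The experiment number in the labels pairs arrays of different groups. Residuals of 16 same-experiment pairs correlated at 0.486 to 0.802 with group means removed, and at 0.00339 to 0.516 with run means removed too.

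Named members were called with a difference of at least 1 log2 unit and above background in the higher group, with values on every array for the 12 largest and for Cyp2f2, Cyp2b10, Cyp4b1, Cyp1a1, Cyp1b1, Cyp2s1, Cyp2e1 and Cyp2j6 (Cyp2a5 shares its probe set). Smaller changes named beside them were chosen after their values were seen. Members and lists were chosen with earlier results of these data known. RefSeq's promoter table held 67 members, and sequences were aligned with Biopython 1.88. Each comparison was repeated under 20 other settings.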

Additional observations from a re-analysis of the deposited data

Results flagged for a closer look

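In 3 of 48 tests, each of 6 arrays of a group for a named member, 1 array stood far from the others once the mean of all arrays of its run was subtracted, and chance flags about 1 in 20. The Wntnegative array of experiment 3 lay at −3.14 for Cyp2s1 (deposited value 11.12), with a gap to the next array of 0.633 of the range. The Wnthigh array of experiment 2 lay at 1.43 for Cyp4b1 (deposited value 15.32, gap 0.648 of the range). The Wntlow array of experiment 4 lay at 0.89 for Cyp2d22 (deposited value 7.06, gap 0.644 of the range).

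Of the probe sets with a P450 symbol and another symbol, 2 were above background and entered no comparison. That of Cyp2a4 and Cyp2a5 averaged 14.13 in Wnthigh, 14.04 in Wntlow and 5.55 in Wntnegative cells. That of Cyp4v3 and its neighbour Klkb1 averaged 7.88 in Wnthigh, 7.53 in Wntlow and 7.81 in Wntnegative cells.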

How the results depend on the processing

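No called difference of a named member changed sign under the 20 other settings. Under several of these, such as leaving out the run term, the difference itself stays the same, because the groups are balanced over the runs. Its sign could not change there, so these are not 20 separate checks. Of 41 called differences of named members, 39 stayed called whichever experiment was left out, 38 in the later run alone, 31 in the earlier run alone and 26 without the run term. With the experiment as a replicate block 40 stayed called, and members called were 19 higher and 8 lower for Wnthigh against Wntnegative, 21 higher and 2 lower for Wntlow against Wntnegative and 8 higher and 11 lower for Wnthigh against Wntlow; Cyp39a1 was the only named member to lose a call.

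Without the run term (9.37%, 3.52% and 4.48% of all genes called over the comparisons) the members called were 9 higher and 1 lower (1 lower by at least 1 log2 unit) for Wnthigh against Wntnegative, 8 higher and 0 lower for Wntlow against Wntnegative by limma (12 had an unadjusted p under 0.05 in either direction, and 20 in the earlier run alone) and 2 higher and 6 lower for Wnthigh against Wntlow. Partner genes gave 5 higher and 2 lower, 4 higher and 0 lower (0 lower by at least 1) and 2 higher and 2 lower. In the earlier run alone, with fewer arrays (8.40% and 10.9% of all genes called), 11 higher and 0 lower members and 5 higher and 1 lower partner genes (0 lower by at least 1) were called for Wntlow against Wntnegative. For Wnthigh against Wntlow limma called 0 members higher, 0 by at least 1 (17 had an unadjusted p under 0.05 in either direction), and 2 higher and 4 lower partner genes, 1 higher by at least 1. In the later run alone 4 members were lower for Wnthigh against Wntnegative, and for Wntlow against Wntnegative 1 was lower by at least 1 and 1 partner gene was lower. Centring arrays gave 5 members lower for Wnthigh against Wntnegative and 30 higher for Wntlow against Wntnegative. Members lower by at least 1 for Wntlow against Wntnegative numbered 2 with array quality weights, 1 without the Wntlow arrays of experiments 3 and 4, and 2 without experiment 4 (0 to 2 over the experiments left out). Leaving out experiments gave 18 to 20 members higher and 6 to 10 lower for Wnthigh against Wntnegative, 17 to 20 and 2 for Wntlow against Wntnegative, and 7 to 8 and 11 to 13 for Wnthigh against Wntlow. Leaving out the run term kept each difference and counted the offset between runs as spread. For Cyp2j6 the difference of Wnthigh from Wntlow cells stayed at −1.64, with adjusted p = 0.1145 by limma. Apart from that and fewer arrays in a single run, the causes were not tested. Signal near background limits the sizes of differences, and signal at the top of the scale may do so.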
